A study of Sus scrofa with 2 samples.

Results

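Osteopontin, encoded by SPP1, is a secreted phosphorylated glycoprotein that carries an RGD cell-binding motif. It anchors cells to matrix by binding integrins, which are receptors of 1 alpha and 1 beta subunit each. ITGAV, the alpha V subunit, pairs with several beta subunits, and ITGB1, the beta 1 subunit, pairs with many alpha subunits, ITGAV among them. In pig pregnancy SPP1 is best known as a product of the luminal epithelium of the uterus, where it is thought to tether the conceptus. Outside the uterus it is also made by macrophages and by vessels that are being remodelled. SPP1, ITGAV and ITGB1 are described here across the cell types of pig endometrium. They were taken by symbol and each had 1 row among the 10753 rows with a symbol and the 26881 rows of the table (identifiers ENSSSCG00025039675, ENSSSCG00025070091 and ENSSSCG00025002241).

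The data were 2 droplet single-cell libraries of endometrium, the inner lining of the uterus, from Yorkshire sows of similar genetic background, 3 years old, killed after artificial insemination. The study compared a sow at day 7 of gestation, before the receptive period, with a sow at day 13, in the receptive period, and took tissue from each uterine horn. The sample labels name the libraries endometrium 1 and endometrium 2 without a stage. The names of the deposited matrices, which are not labels, put library 1 before receptivity and library 2 in it, so the comparison below is between libraries and no stage is assigned. Each library came from 1 sow, so sow, stage and preparation cannot be told apart, no test of a difference between them was possible. All intervals given are 95% intervals and cover counting error alone.

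Library 1 held 10045 barcodes and 45388759 unique molecular identifiers (UMIs, counts of distinct captured molecules), and library 2 held 15093 barcodes and 87514969 UMIs. They shared 48 barcode sequences. Levels are given as CPM, the UMIs of a gene scaled to 1000000 UMIs of the cell class. The libraries stood apart: of 32 clusters, only 3 drew at least 10% of their cells from each library, and these held macrophage-like, plasma-like and dividing cells. All 11 sub-clusters of blood endothelium and all 9 of epithelium came from 1 library almost alone, so a class compared between libraries rests on different clusters in each. Ribosomal protein genes took 14.4% of UMIs in library 1 and 5.78% in library 2, and a list of 24 genes with very long introns took 0.0636% and 0.558%. Immediate early and stress genes took 1.02% and 1.93%. These 3 lists are measures of RNA state, and their part in the results below was not tested.

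Among the retained cells of library 1, SPP1 was mainly an endothelial transcript. Blood endothelial-like cells, named by markers such as CLDN5 and PECAM1, held 1969 of the 2307 SPP1 UMIs of these cells (85.3%). Barcodes called doublets, left out here, held 1178 of the 3485 SPP1 UMIs of library 1 before their removal. Of the 1178, 648 lay in 1 barcode clustered with macrophages and 321 in doublets clustered as blood endothelium. In the retained cells of library 2, blood endothelial-like cells held 376 of 1254 UMIs (30.0%). Macrophage-like cells held 451 (36.0%) and epithelial-like cells 362 (28.9%). Over all retained cells the SPP1 level was 62.3 CPM (59.8 to 64.9) in library 1 and 19.7 CPM (18.6 to 20.8) in library 2.

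**Figure D1:**
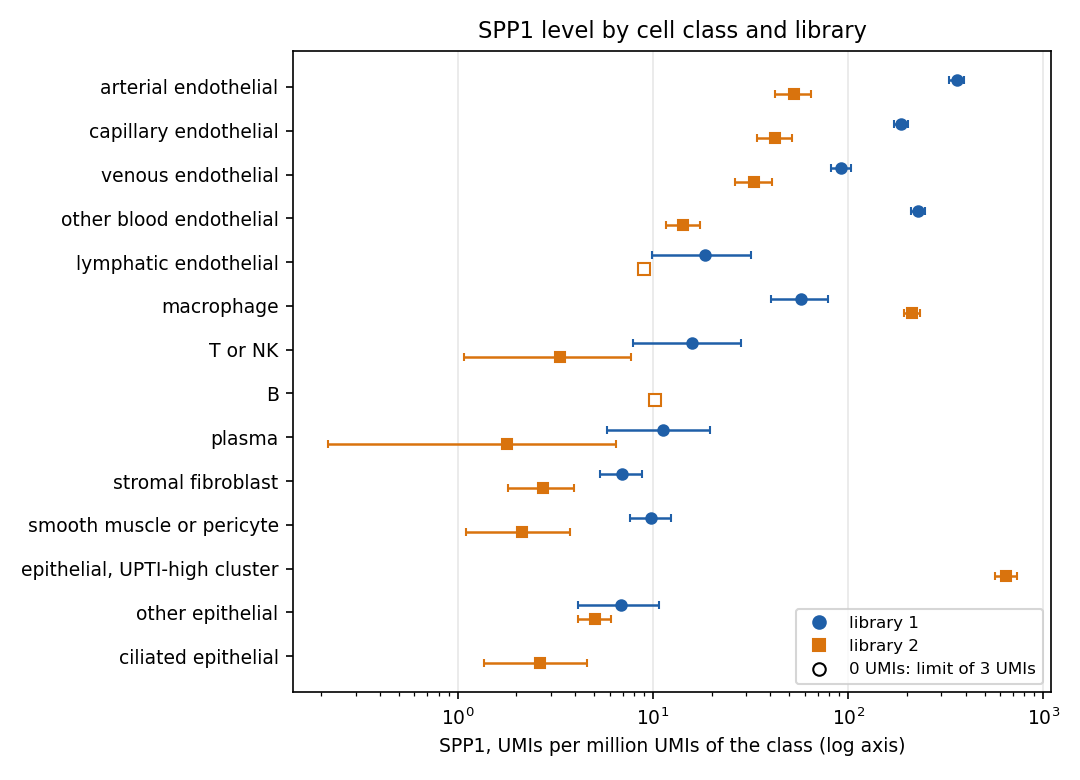
SPP1 level in each cell class, in CPM on a log axis, with exact Poisson 95% intervals that cover counting error only. Circles are library 1 and squares library 2, and open symbols mark classes with 0 UMIs at the level that 3 UMIs would give. The 4 blood endothelial classes lie further right in library 1, and the macrophage class lies further right in library 2, with called doublets left out. The UPTI-high cluster had cells in library 2 only.

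Arterial endothelial-like cells, named by SEMA3G, GJA5 and GJA4, had the highest SPP1 level of any class in library 1. They held 360 CPM (329 to 394; 490 UMIs in 367 cells) in library 1 and 52.5 CPM (42.4 to 64.3; 93 UMIs in 316 cells) in library 2. The level was thus 6.86-fold lower in library 2, and the log2 ratio of library 2 over library 1 was -2.78 (-3.11 to -2.46). The intervals of the 2 libraries did not overlap, and the ratio lay between -2.91 and -2.72 under all 9 alternatives. SEMA3G stood at 680 CPM against 21.1 CPM in other cells of library 1, and at 277 CPM against 11.0 CPM in library 2. It was among the markers used for naming, so these values describe the class. Of the 9 arterial markers with a symbol, 7 were at least 2-fold higher than in other cells in library 1 and 6 in library 2.

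The other vessel classes followed in the same direction. Capillary endothelial-like cells, with PLVAP and KDR, had 187 CPM of SPP1 (172 to 202) in library 1 and 42.0 CPM (33.9 to 51.4) in library 2, for a ratio of -2.15 on the log2 scale (-2.48 to -1.84). Venous endothelial-like cells, with ACKR1 and SELP, had 92.1 CPM (81.9 to 103) and 32.9 CPM (26.3 to 40.7), for a ratio of -1.48 (-1.85 to -1.13). Of the 4 venous markers with a symbol, only 2 were at least 2-fold higher than in other cells in library 1 and 3 in library 2. Other processing choices left the capillary and venous ratios below 0 but moved their size. They lay between -4.52 and -2.10 in capillary and between -2.94 and -1.39 in venous cells. The order arterial, capillary, venous thus held in library 1 with no overlap of neighbouring intervals, whereas in library 2 each of the 3 overlapped its neighbour. Endothelial cells that met no subtype rule had 228 CPM (209 to 248) in library 1 and 14.3 CPM (11.7 to 17.3) in library 2. Lymphatic endothelial-like cells stood far below the blood vessels in library 1, with 13 SPP1 UMIs in 210 cells (18.5 CPM, 9.85 to 31.6). In library 2 they had 0 UMIs in 75 cells, with an upper 95% bound of 11.0 CPM.

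SPP1 in the vessels of library 1 was spread over many cells. After thinning each cell to 1000 UMIs, 21.4% of arterial cells of library 1 and 4.17% of those of library 2 had an SPP1 UMI, and the unthinned shares were 40.3% and 19.3%. Stromal fibroblast-like cells gave 0.953% and 0.184% thinned and 2.57% and 1.18% unthinned, at a median of 4364 and 4472 UMIs per cell against 3169 and 4674 in arterial cells. Of the 2565 endothelial cells of library 1, 690 had an SPP1 UMI (26.9%), and the 10 richest cells held 10.6% of the UMIs. Ribosomal protein genes took 11.7% of arterial UMIs in library 1 and 5.41% in library 2, and 37 of 63 of them were at least 2-fold lower, beside 10.1% of all arterial genes. The median log2 ratio of that list was -1.11, and the list's part in the arterial SPP1 difference was not tested.

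One sub-cluster within the capillary class of library 1 carried more SPP1 than the arterial cells. It held 41 of the 728 capillary cells, was led by ECM1, RGCC, KCNE3, ACKR3, CXCR4, CXCL9, ESM1 and APLN, and was chosen after its values were seen. ESM1, APLN and CXCR4 are known markers of endothelial tip cells, which lead new vessel sprouts. SPP1 stood at 982 CPM (861 to 1115) there, and 33 of the 41 cells had at least 1 SPP1 UMI. These cells held 237 of the 634 SPP1 UMIs of the class, and the other 687 capillary cells had 126 CPM (114 to 139). ITGB1 in the same cells was 742 CPM (637 to 859) and ITGAV 37.3 CPM (17.0 to 70.8), both with intervals that overlapped those of the arterial cells. SPP1 itself had been kept out of the genes used for clustering, but it is among the 10 genes with the highest fold in this sub-cluster, so its level is a description. A larger sub-cluster of 470 cells, led by CCL5, RNF122, Ddit3 and MT2A and outside the named vessel types, had 254 CPM (232 to 279).

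**Figure D2:**
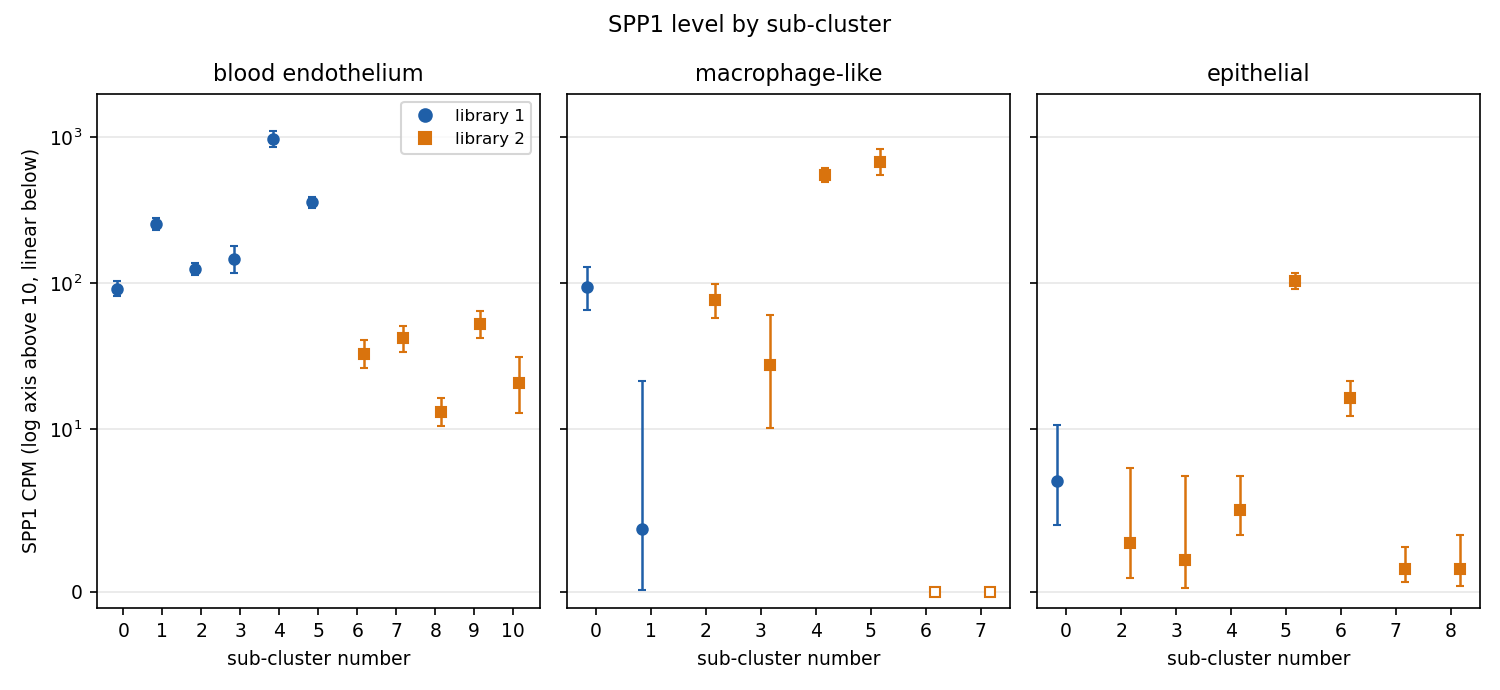
SPP1 level (CPM, log axis above 10 and linear below) in each sub-cluster with at least 20 cells of a library, for blood endothelium, macrophage-like cells and epithelium. Circles are library 1, squares library 2, bars exact Poisson 95% intervals, and open symbols 0 UMIs. Endothelial sub-cluster 4 of library 1 stands at 982 CPM, macrophage sub-clusters 4 and 5 of library 2 at 555 and 679 CPM, and epithelial sub-cluster 5, the UPTI-high one, at 104 CPM.

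Macrophages carried SPP1 in both libraries, in a few cells each. Macrophage, monocyte or dendritic-like cells, with C1QA, C1QB, TYROBP and AIF1, had 57.3 CPM (40.3 to 78.9; 37 UMIs in 181 cells) in library 1 and 212 CPM (193 to 233; 451 UMIs in 521 cells) in library 2. The log2 ratio was 1.89 (1.40 to 2.41). This ratio did not hold when barcodes called doublets were kept: library 1 then had 718 CPM (667 to 772; 730 UMIs in 229 barcodes) and library 2 129 CPM (118 to 141; 481 UMIs in 694 barcodes), a log2 ratio of -2.47. A single barcode reversed the ratio, so the direction between the libraries in macrophages depends on whether it is kept.

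That barcode of library 1 held 648 SPP1 UMIs among 9905 UMIs (6.54%), more than any other barcode of either library and 18.6% of all SPP1 UMIs of library 1 before doublets were removed. It had 126 UMIs of 8 of the 16 macrophage markers (1.27% of its UMIs), where macrophage-like cells of library 1 had a median of 1.48%. Blood endothelial markers gave 1 UMI, and smooth muscle and epithelial markers 0. Markers of T or NK cells took 17 UMIs (0.172%, against a median of 0.0279% in the class) and stromal markers 15 UMIs (0.151%, against 0.164%). Whether it held 1 cell or 2 cells was not tested. Without this 1 barcode, chosen after its value was seen, the class with doublets kept had 81.4 CPM (64.8 to 101) in library 1. Library 2 without its own highest barcode had 102 CPM (92.0 to 113), an interval that overlaps it.

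The same unevenness was present among the retained macrophages of library 2. Of 521 cells, 51 had an SPP1 UMI (9.79%; 5.35% after thinning), beside 16 of 181 in library 1 (8.84%; 5.70% after thinning), both above the thinned stromal shares. The 10 richest cells held 78.5% of the class's SPP1 UMIs, and the highest had 102 UMIs. Thinning to 1000 UMIs moved the log2 ratio to 0.58, and weighting cells equally moved it to 1.36. The shares of macrophages with an SPP1 UMI had overlapping intervals (5.14 to 14.0% and 7.38 to 12.7%), while the level followed a few cells.

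Within the macrophage class of library 2, SPP1 was concentrated in some sub-clusters. Cells led by C4BPA, MRC1, DAB2 and C1QA, of which MRC1 is a marker of tissue-resident macrophages, had 555 CPM (493 to 622; 295 UMIs in 175 cells), of which 286 UMIs lay in 10 cells. A sub-cluster of 41 cells led by RNF128, C3, MAP2 and CKB had 679 CPM (549 to 831; 94 UMIs in 10 cells), and its ITGAV level of 354 CPM (262 to 468) was also the highest among macrophage sub-clusters. Cells led by CD1.1 and TIMP1 had 76.7 CPM (58.0 to 99.6). Sub-clusters with XCR1 or LAMP3 among their leading genes, which are markers of dendritic cells, had 0 SPP1 UMIs in 48 and 32 cells. The upper 95% bounds were 13.5 and 24.4 CPM. In library 1 the macrophage sub-cluster led by RNF128, CCL8, C1QB and C1QA held 36 of the 37 SPP1 UMIs (94.1 CPM).

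**Figure D3:**
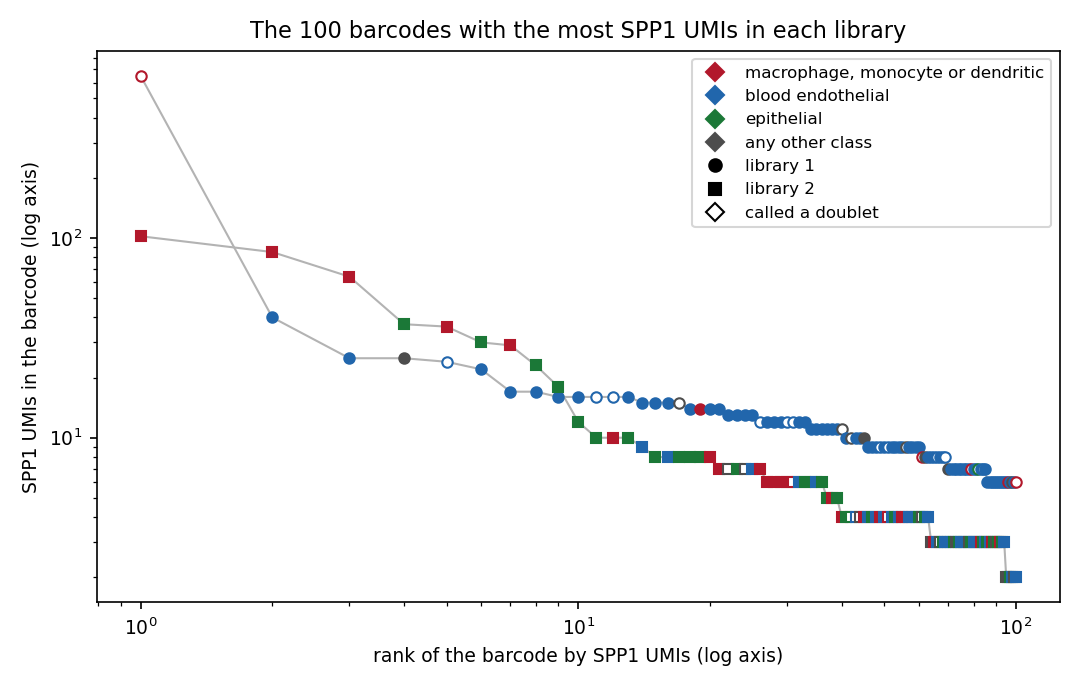
SPP1 UMIs (log axis) in the 100 barcodes with the most SPP1 UMIs of each library, by rank (log axis), with called doublets included as open symbols. Circles are library 1, squares library 2, and colours give the class in the clustering that kept doublets. One called doublet of library 1 with 648 UMIs stands above all others, the next barcodes of library 1 are mostly endothelial, and those of library 2 are mostly macrophages, with at most 102 UMIs, and epithelial cells.

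In the epithelium of library 2, 240 of 362 SPP1 UMIs lay in a group of 48 among 4321 cells. UPTI encodes the uterine plasmin and trypsin inhibitor, a secreted protease inhibitor of pig uterine epithelium. This cluster, all from library 2, was led by UPTI, NMU, S100A2, AGR2 and VNN2 and had 24183 CPM of UPTI against 15.0 CPM in other cells. Its SPP1 level was 645 CPM (566 to 732), with 240 UMIs in 31 of 48 cells (64.6%; 45.7% after thinning). The highest cell had 37 UMIs, and the 10 richest cells held 68.3% of the UMIs. SPP1 is also among the 10 leading genes of this cluster, so the level is a description. All 6 markers of conceptus trophoblast were at 0 in these cells, and the 9 epithelial markers were all present.

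Finer clustering of the epithelium placed 46 of these cells in a UPTI-high sub-cluster of 192 cells with an SPP1 level of 104 CPM (92.1 to 118). The remaining 146 cells of that sub-cluster had 17 SPP1 UMIs (8.10 CPM) and 34.3 CPM of UPTI. They had a median of 14449 UMIs, against 6007 in the 48-cell cluster, and 415 CPM of COL3A1, a collagen gene of stromal cells. Their part in the level was not tested, and the 104 CPM includes them. In library 1 the UPTI-high sub-cluster had 15 cells, 1388 CPM of UPTI and 1 SPP1 UMI (4.72 CPM, 0.120 to 26.3). The upper end of that interval lay below the 104 CPM of the library 2 sub-cluster, on 15 cells.

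The remaining epithelium had little SPP1. Epithelial-like cells without the UPTI-high sub-clusters had 6.84 CPM (4.12 to 10.7) in library 1 and 5.05 CPM (4.13 to 6.11) in library 2. Gland-like cells of library 2 led by SULT2A1 had 16.4 CPM (12.3 to 21.4), and gland-like cells led by SLPI, with UABP-2 and ACP5, had 5.06 CPM (3.48 to 7.10). For the whole epithelial class the level was 6.69 CPM (4.09 to 10.3) and 15.6 CPM (14.0 to 17.3), a log2 ratio of 1.22 (0.57 to 1.95). Without the UPTI-high sub-clusters, an alternative chosen after seeing the data, the log2 ratio was -0.44 (-1.15 to 0.35), so the higher epithelial level of library 2 rested on those cells. After thinning it was -0.51, and with cells weighted equally 0.44.

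Stromal, smooth muscle or pericyte and lymphocyte classes had low levels of SPP1. In library 1 stromal fibroblast-like cells had 6.92 CPM (5.37 to 8.77), smooth muscle or pericyte-like cells 9.76 CPM (7.61 to 12.3) and T or NK-like cells 15.8 CPM (7.88 to 28.2). In library 2 they had 2.73 CPM (1.82 to 3.95), 2.14 CPM (1.11 to 3.74) and 3.32 CPM (1.08 to 7.76). The levels of these 3 classes were lower in library 2 by 1.34, 2.19 and 2.25 on the log2 scale. The last value rests on 11 and 5 UMIs. B-like cells of library 2 had 0 UMIs in 124 cells, with an upper 95% bound of 12.6 CPM. ACP5, a gland product that also removes phosphate from osteopontin, was likewise found in all classes of library 2: it stood at 17510 CPM in epithelial-like cells and still at 848 CPM in arterial cells, against 3.68 and 0.735 CPM in library 1. The part of free RNA in these levels was not tested.

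ITGAV was highest in the epithelium of library 2. Epithelial-like cells had 52.6 CPM (44.7 to 61.4; 157 UMIs in 194 cells) in library 1 and 293 CPM (287 to 301; 6827 UMIs in 4321 cells) in library 2, and the intervals did not overlap. The level was 5.58-fold higher in library 2 (log2 ratio 2.48, 2.25 to 2.72), and between 2.40 and 2.86 under the 11 alternatives. Among retained cells, epithelial cells held 157 of 3411 ITGAV UMIs of library 1 and 6827 of 11684 (58.4%) of those of library 2. Among library 2 sub-clusters ITGAV ran from 204 CPM (188 to 221) in cells led by SAL1 to 519 CPM (481 to 559) in cells led by SLC1A2 and SLC20A1. The latter had a median of 1082 UMIs per cell, against 7863 in the epithelial cluster of library 1. The UPTI-high cluster, rich in SPP1, had 161 CPM of ITGAV (123 to 207), below the 299.9 CPM (293 to 307) of epithelium outside the UPTI-high sub-cluster.

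Smooth muscle or pericyte-like cells and stromal fibroblast-like cells led ITGAV in library 1. The first had 181 CPM (172 to 191) in library 1 and 243 CPM (230 to 256) in library 2 (log2 ratio 0.42, 0.31 to 0.53). The second had 120 CPM (113 to 127) and 137 CPM (129 to 144), for a log2 ratio of 0.19 (0.08 to 0.30). In blood vessels ITGAV was low in library 1, with 26.5 CPM (18.5 to 36.7) in arterial, 25.0 CPM (20.0 to 30.9) in capillary and 23.9 CPM (18.8 to 29.8) in venous cells, values that did not differ beyond their intervals. In library 2 the same classes had 67.2 CPM (55.7 to 80.4), 81.3 CPM (69.9 to 94.0) and 77.3 CPM (67.0 to 88.7), again with overlapping intervals. Macrophage-like cells had 38.7 CPM (25.0 to 57.1) and 61.6 CPM (51.5 to 73.1), and T or NK-like cells, at the bottom of the order in library 1, had 15.8 CPM (7.88 to 28.2) and 45.2 CPM (35.1 to 57.3).

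ITGB1 was the more even of the subunits across classes and went the other way between libraries. Smooth muscle or pericyte-like cells were at the top in both, with 886 CPM (865 to 908) in library 1 and 599 CPM (579 to 620) in library 2 (log2 ratio -0.56, -0.62 to -0.50). Endothelial classes came next. Arterial cells had 703 CPM (659 to 749) and 379 CPM (351 to 409), and venous cells 656 CPM (628 to 685) and 419.5 CPM (395 to 445). Lymphatic cells had 734 CPM (672 to 800) and 409 CPM (343 to 483), and capillary cells 746 CPM (718 to 776) and 306 CPM (283 to 330). In library 2 the capillary interval overlapped those of T or NK-like and stromal cells. In library 1 the venous interval overlapped that of T or NK-like cells. Capillary cells had the largest ITGB1 difference among the 8 classes that reached 100 cells in both libraries, at -1.29 on the log2 scale (-1.41 to -1.16). Stromal cells had 480 CPM (466 to 494) and 289 CPM (279 to 300), T or NK-like cells 627 CPM (569 to 688) and 300.5 CPM (273 to 330), and macrophage-like cells 283 CPM (244 to 327) and 129 CPM (114 to 145).

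Among the 8 classes, only in epithelial-like cells did the interval of the ITGB1 ratio include 0. Epithelial-like cells had 204 CPM (188 to 221) in library 1 and 196 CPM (190 to 201) in library 2, with overlapping intervals and a log2 ratio of -0.06 (-0.18 to 0.06). TMM scaling, which corrects for a shift of the bulk of genes, turned the sign to 0.17. That scaling moved every epithelial ratio by 0.23, every macrophage ratio by 0.19 and every arterial ratio by 0.06. Plasma-like cells and library 2 B-like cells were lowest, with 148 CPM (126 to 173) and 124 CPM (104 to 146) in plasma-like cells and 127 CPM (89.3 to 175) in B-like cells. The ITGB1 ratio of plasma-like cells, with fewer than 100 cells per library, also had an interval that included 0 (-0.25, -0.59 to 0.08).

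**Figure D4:**
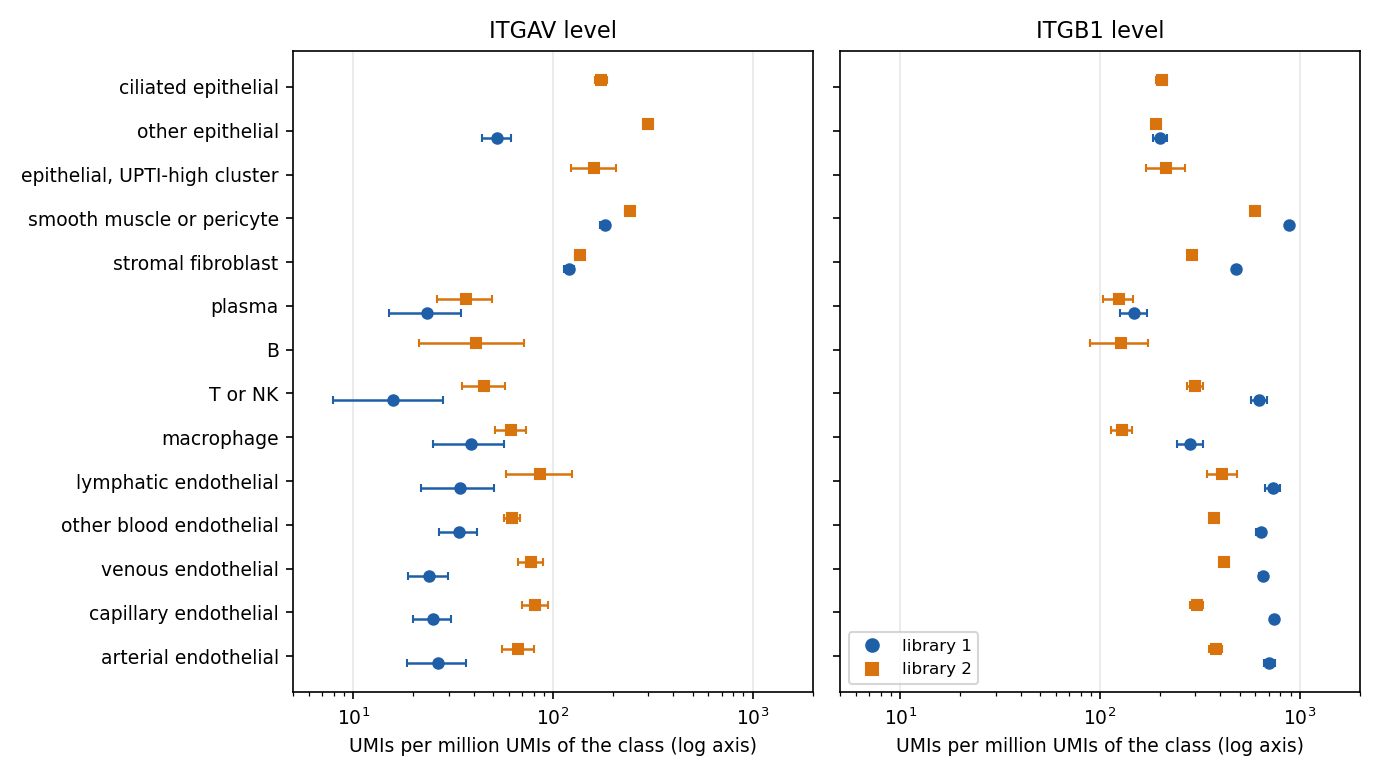
Levels of ITGAV (left) and ITGB1 (right) in each cell class, in CPM on log axes, with exact Poisson 95% intervals for counting error. Circles are library 1 and squares library 2. In most classes ITGAV lies further right in library 2 and ITGB1 further right in library 1, and in epithelial cells the ITGB1 symbols nearly coincide.

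Across those 8 classes, ITGAV was higher in library 2 in 8, with every interval above 0, and 2-fold higher or more in 5. The share of all genes past that size was 19.3% to 27.3%, by class. ITGB1 was lower in library 2 in 8, with 7 intervals below 0, and 2-fold lower or more in 3, where the share of all genes was 8.13% to 21.7%. No alternative changed the sign of ITGAV in these classes, and for ITGB1 signs changed only in epithelial-like cells. Epithelial-like cells held 58.4% of the ITGAV UMIs of the retained cells of library 2. The gland product ACP5 stood at 848 CPM in arterial and 2198 CPM in T or NK-like cells of that library. The part of free epithelial RNA in the ITGAV levels and ratios of the other classes was not tested. The balance of the subunits can be read without any scaling, as ITGB1 UMIs per ITGAV UMI of the same cells. In epithelial-like cells it was 3.89 in library 1 and 0.666 in library 2, so that ITGAV was 20.5% (17.7 to 23.5%, Clopper-Pearson) and 60.0% (59.1 to 60.9%) of the UMIs of the pair. It was 29.8 and 3.76 in capillary cells, 26.6 and 5.65 in arterial cells and 39.7 and 6.65 in T or NK-like cells. Stromal cells (4.01 and 2.12) and smooth muscle or pericyte-like cells (4.89 and 2.47) differed least among these 8 classes. Capture can differ between genes, so the ratio is compared between libraries and not read as a ratio of molecules in the cell.

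Measures of RNA state differed between the libraries as well. In epithelial-like cells 20 of 23 long-intron genes with at least 20 UMIs were past 2-fold higher in library 2 (median log2 ratio 2.82), and 61 of 65 ribosomal protein genes past 2-fold lower. In arterial cells 17 of 18 long-intron genes were past 2-fold higher (median 3.23), beside 19.3% of all genes. In macrophage-like cells 18 of 20 were (median 3.47), beside 21.2% of all genes. There too some passed only through library 2, such as LRMDA with 7 and 1209 UMIs in arterial and 5 and 1223 in macrophage-like cells. Over all genes with at least 20 UMIs in epithelial-like cells, 24.6% were at least 2-fold higher and 21.7% at least 2-fold lower in library 2. Over the 8 classes the ITGAV log2 ratios lay between 0.19 and 2.48, and the long-intron medians at 2.70 or higher. A list median cannot give the part that RNA state has in the ratio of a gene. Of the immediate early and stress genes, 19 of 25 were past 2-fold higher and 2 past 2-fold lower in epithelial-like cells (median 2.24). In macrophage-like cells 0 of 24 were higher, beside 21.2% of all genes. In T or NK-like cells 0 were higher and 7 of 24 lower, beside 23.6% and 8.13% of all genes. The part of these lists in the ITGAV and ITGB1 differences was not tested.

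Other receptors of osteopontin gave a mixed picture. Of 11 listed receptor genes, 5 had a symbol, which were ITGAV and ITGB1 themselves and ITGB3, ITGB5 and ITGA5. CD44, ITGB6, ITGB8, ITGA4, ITGA8 and ITGA9 had no row with their symbol, so they could not be measured. ITGB5, a partner of ITGAV, was mainly vascular, with 225 CPM in library 1 and 239 CPM in library 2 in arterial cells (log2 ratio 0.09, -0.13 to 0.30) and 186 and 316 CPM in capillary cells (0.77, 0.61 to 0.92). ITGA5, the partner of ITGB1 in the fibronectin receptor, was 215 and 149 CPM in arterial cells (-0.53, -0.77 to -0.28) and 169 and 104 CPM in capillary cells (-0.71, -0.93 to -0.49). In venous cells ITGA5 was 145 and 152 CPM, and the interval of its ratio included 0. ITGB3, whose pairing with ITGAV is the classic osteopontin receptor, was highest in arterial cells among the 8 classes, with 22.1 and 39.0 CPM. Of 17 other integrin subunits listed, 4 had a symbol. ITGA7, a laminin receptor subunit of muscle, was 69.9 and 2.93 CPM in stromal cells (-4.58, -5.16 to -4.05) and 422 and 254 CPM in smooth muscle or pericyte-like cells (-0.73, -0.82 to -0.64). ITGA2B was 70.6 and 170 CPM in epithelial-like cells (1.26, 1.06 to 1.47). It was not particular to epithelium, with 73.1 and 196 CPM in stromal cells and 58.8 and 182 CPM in T or NK-like cells. In venous and macrophage-like cells the interval of its ratio included 0. Of the SIBLING family, the group of phosphoproteins to which osteopontin belongs, only SPP1 of 5 had a symbol.

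The adhesion complex, the intracellular proteins that tie integrins to actin, had 25 of 43 listed genes with a symbol. In epithelial-like cells 11 of 25 were at least 2-fold higher and 3 at least 2-fold lower in library 2, beside 24.6% and 21.7% of all genes, and the list median was 0.87 beside -0.03. VCL, encoding vinculin, was 50.9 CPM in library 1 and 451 CPM in library 2 (log2 ratio 3.15, 2.92 to 3.39). PTK2B, a focal adhesion kinase relative, was 4.35 and 84.6 CPM, and TNS2, encoding a tensin, 11.7 and 81.0 CPM. In arterial cells 6 of 24 were higher and 1 lower, beside 19.3% and 10.1% of all genes. There PTK2, encoding focal adhesion kinase, was 88.3 and 369 CPM.

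The adhesion list was counted in the same way in the other classes. In stromal cells 6 of 25 were higher and 3 lower, beside 27.3% and 12.6% of all genes, and in smooth muscle or pericyte-like cells 6 and 2 of 25, beside 20.7% and 9.76%. Capillary cells had 4 higher and 3 lower of 24 (background 20.5% and 14%) and venous cells 6 and 3 of 24 (20.3% and 13.9%). In macrophage-like cells 3 were higher and 6 lower of 24 (21.2% and 12.5%), and with a minimum of 100 UMIs per gene 3 were higher and 2 lower of 17. T or NK-like cells had 5 higher and 2 lower of 22 (23.6% and 8.13%). PTK2 was among the higher genes in several of these classes, with 55.7 and 299 CPM in stromal cells and 92.1 and 498 CPM in capillary cells.

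**Figure D5:**
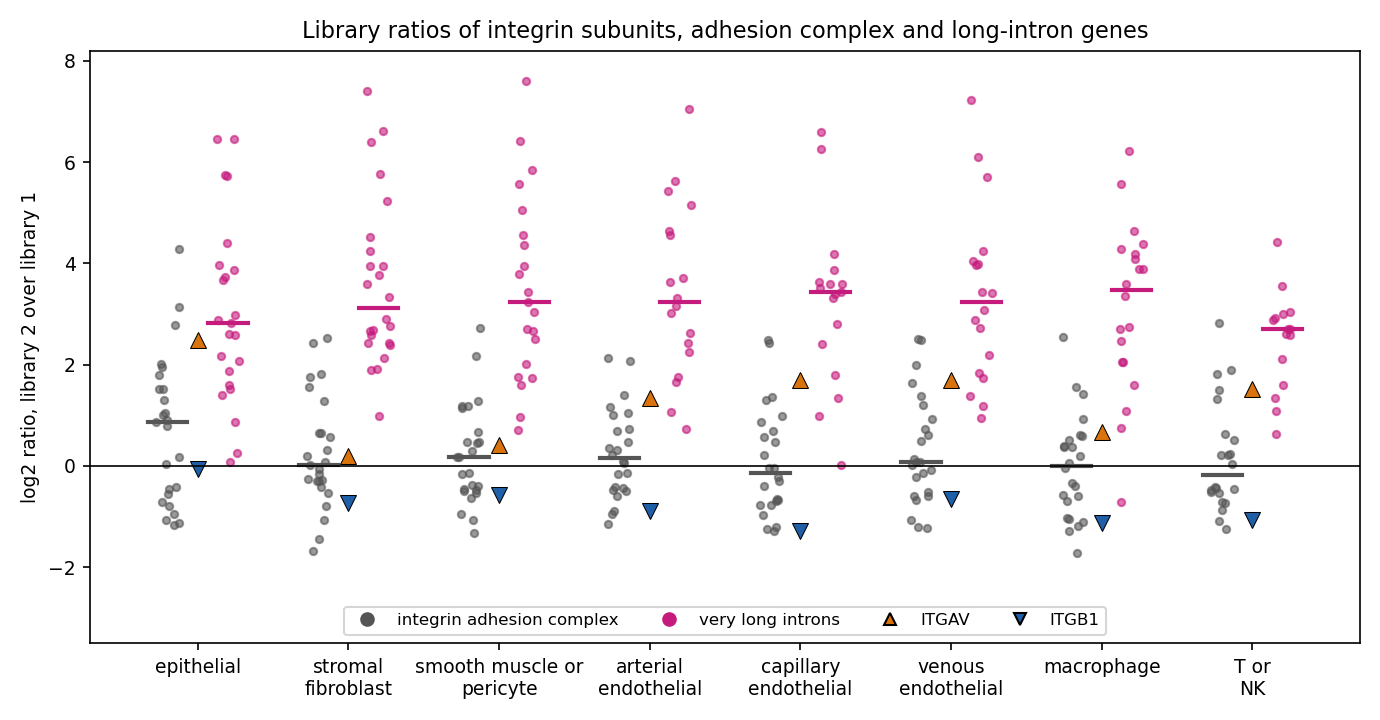
Log2 ratio of library 2 over library 1 in each of the 8 classes that reached 100 cells in both libraries. Grey points are the measured genes of the adhesion complex, magenta points those with very long introns, horizontal bars the list medians, upward triangles ITGAV and downward triangles ITGB1. The long-intron medians lie at 2.70 or higher in every class, ITGAV lies between 0.19 and 2.48, and ITGB1 between -1.29 and -0.06.

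Of 34 other ligands of alpha V and beta 1 integrins, 18 had a symbol. In epithelial-like cells 4 of 16 measured were at least 2-fold higher and 3 at least 2-fold lower, beside 24.6% and 21.7% of all genes. CCN2, a matricellular growth factor, was 171 CPM in library 1 and 2914 CPM in library 2 (log2 ratio 4.09, 3.97 to 4.22). NPNT, encoding nephronectin, was 303 and 28.3 CPM (-3.42, -3.57 to -3.27). In venous cells 7 of 13 were past 2-fold higher and 0 lower, beside 20.3% and 13.9% of all genes. THBS1, encoding thrombospondin, was 178 and 934 CPM there. VCAM1, also among the 7, was 49.3 and 309 CPM. It was among the markers used to name venous cells, so its values and its place in the count are a description. In arterial cells THBS1 was 150 and 653 CPM and LTBP1 301 and 725 CPM, the opposite direction to SPP1 in the same cells. Past 2-fold, 4 of 13 ligands were higher and 0 lower there, beside 19.3% and 10.1% of all arterial genes.

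Of 13 listed enzymes that act on osteopontin, 11 had a symbol. In epithelial-like cells 4 of 8 measured were past 2-fold higher and 1 lower, beside 24.6% and 21.7% of all genes. Of those 4, F2 and PHEX had 0 UMIs in library 1 and 51 and 55 in library 2, and ACP5 had 11 and 407314. F2, PHEX and ACP5 thus reached the minimum of 20 UMIs only through library 2, where they were high. The remaining gene was FAM20C, with 58 and 1324 UMIs. In arterial cells 1 of 6 was higher, which was ACP5, and 2 were lower, beside 19.3% and 10.1%. There ACP5 had 1 UMI in library 1 and 1502 in library 2, so it too was measured only through library 2. FAM20C, the kinase that phosphorylates secreted proteins such as osteopontin, was 19.4 and 56.9 CPM in epithelial-like cells (log2 ratio 1.55, 1.17 to 1.96). MMP2, a protease with osteopontin among its substrates, was lower in arterial cells, at 179 and 55.3 CPM, and in macrophage-like cells, at 91.3 and 29.6 CPM. PLAU, encoding urokinase, was 34.1 and 122 CPM in stromal cells and 158 and 61.2 CPM in macrophage-like cells.

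The genes whose levels ran most like each member were sought over 25 profiles, each a class in a library with at least 50 cells, among 5913 genes with at least 50 CPM in 1 profile. For SPP1 they were C1orf54 (Pearson r 0.78), CCL14 (0.77), TEK (0.75), FAM111A (0.75) and PDGFB (0.74), all highest in blood endothelium of library 1. For ITGAV they were EPHB3 (0.90), CACNA1D (0.90), ST5 (0.88), SH3RF1 (0.88) and DSTN (0.87), all highest in library 2. For ITGB1 they were ANKMY2 (0.94), C2H5orf24 (0.90), EIF4G2 (0.89), CAPNS1 (0.88) and CGGBP1 (0.88), all highest in library 1. Profiles of 1 library share depth and RNA state, so these correlations are descriptions. With a pseudocount of 20 CPM in place of 5, 3 of 5 genes remained for SPP1, 3 of 5 for ITGAV and 5 of 5 for ITGB1.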

How the data were processed

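The authors deposited unnormalized UMI counts, 1 matrix per library, made with Cell Ranger 6.1.0 per the file headers and with Cell Ranger 2.1.1 per the submitters' processing notes. The 10x 3' method is per the labels' protocols. For genome build and intron counting, nothing is given in the sources used. Symbols came from the deposited gene tables. Rows sharing a symbol were summed (50 symbols), and 72.1% and 71.0% of UMIs had a symbol.

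The members and lists were chosen with earlier results of these data known. The filter asked for 500 UMIs and 200 genes per barcode (5 and 1 barcodes removed), and Scrublet calls (1110 and 2419 barcodes) removed, leaving 8930 and 12673 cells. Cells were clustered together with scanpy 1.11.5 (2000 variable genes without the members and the integrin and ligand lists, 30 components, 15 neighbours, Leiden resolution 1.0, seed 1) and vessels, epithelium and macrophages again (20 components, resolution 0.5), without batch integration. Clusters were named X-like from listed markers by mean log2 fold (pseudocount 20 CPM, at least 3 markers, mean at least 0.5, margin 0.25). A naming rule rebuilt in this way can differ from the study's.

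UMIs were summed by class and library and divided by all UMIs of the class. Levels have exact Poisson, shares exact Clopper-Pearson, and log2 ratios exact conditional binomial 95% intervals (scipy 1.17.1). Counts under 3 were set to 3 in ratios. List genes needed at least 20 UMIs in a class. Named genes were drawn from the members, receptors with at least 50 CPM in any class, the 3 genes of each other list with the largest ratio among those with at least 50 CPM, and the 5 closest profiles per member; ITGB3 is given in addition, chosen after its values were seen. On simulated data 95.7% of intervals held the true ratio for the epithelial comparison (8333 genes) and 96.2% for the arterial one (6583 genes). The simulated counts were Poisson, as the intervals assume, so this checks the calculation alone. It does not cover uneven counts between cells or differences between sows. Alternatives were a stricter filter, doublets kept, separate clustering, resolutions 0.5 and 2.0, the members in the variable genes, TMM scaling (edgeR 4.0.16), equal cell weights, thinning, and, chosen after seeing the data, epithelium without UPTI-high or without low-UMI clusters.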

Additional observations from a re-analysis of the deposited data

Results flagged for a closer look

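The library difference of SPP1 took opposite directions between classes, which was not tested. The log2 ratio of library 2 over library 1 was 1.22 in epithelial-like and 1.89 in macrophage-like cells. It was -2.78 in arterial, -2.15 in capillary and -1.48 in venous endothelial-like cells. In other classes it was -1.34 in stromal fibroblast-like, -2.19 in smooth muscle or pericyte-like and -2.25 in T or NK-like cells. The epithelial and macrophage values depend on few cells and on the processing, as given below.

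Among the barcodes that the comparisons leave out as called doublets, 1 of library 1 held 648 SPP1 UMIs, beside a highest value of 40 UMIs in a retained cell of that library and 102 UMIs in one of library 2. The other called doublets of library 1 together held 530 SPP1 UMIs.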

How the results depend on the processing

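No paired analysis was possible because each group is 1 library and the labels give no replicate numbers. The arterial SPP1 ratio and the epithelial ITGAV ratio kept their direction under all alternatives run. The macrophage SPP1 ratio was reversed to -2.47 with called doublets kept, by the construction of that setting, which adds the 648-UMI barcode. It moved to 1.36 with cells weighted equally and to 0.58 with thinned cells. The epithelial SPP1 ratio was 0.44 with cells weighted equally, -0.51 with thinned cells and -0.44 without the UPTI-high sub-clusters. The epithelial ITGAV ratio moved to 2.86 with cells weighted equally. The epithelial ITGB1 ratio was -0.30 with doublets kept, 0.17 with TMM scaling and 0.073 with cells weighted equally. The lymphatic SPP1 ratio became 1.13 with each library clustered on its own and 1.42 with thinned cells; it rests on 13 and 0 UMIs, and the thinned value is set by the floor of 3 UMIs. The cause of the other moves was not tested. Low SPP1 counts limit every class outside vessels, macrophages and UPTI-high epithelium, and intervals do not cover differences between sows.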
